A study of Volvox carteri with 4 samples.

Results

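Of the 16008 gene models of Volvox carteri in the count table, 121 were well expressed at nearly the same share of reads in somatic and gonidial cells, and they are described here. A gene was a member when it had at least 50 CPM (the count scaled to a library total of 1000000 counted reads) in all 4 libraries and a log2 ratio of mean somatic to mean gonidial CPM between -0.25 and 0.25, a difference of less than 1.19-fold. Loci on the study's published gene lists, which cover flagella, photosynthesis, carbon metabolism, the extracellular matrix and other groups, were left out, except actA, which met both limits and was kept. The members therefore made up 0.756% of all gene models and 13.8% of the 877 well expressed genes. Since the CPM values of the 4 libraries chose the members, the ratios and calls between cell-types below are descriptions, which test nothing about the members.

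The study compared the transcriptomes of both cell-types in strain Eve. Somatic cells and gonidia were isolated from hatched adult spheroids at hour 42 of the 48 hour life cycle, 6 hours into the second light period, when gonidia had not begun to cleave. Each cell-type had 2 biological replicates, each from its own culture, and polyadenylated RNA was sequenced. No gene was altered and no treatment was applied in either group.

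Volvox carteri is a multicellular green alga whose spheroid holds many small flagellated somatic cells, which do not divide, and a few large reproductive cells, the gonidia. Genes with even levels between cell-types often encode functions that every cell needs, and some of them, actin among them, are used as references when other transcripts are scaled. CPM is a share of the counted reads of a library. Equal CPM in a large and a small cell is an equal share of the RNA sequenced and not an equal number of transcripts per cell, and no spike-in of known amount was used to tell these apart. CPM also depends on transcript length, so that it orders the members by reads and not by molecules.

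Counts summed to 10838222 and 13104583 in somatic replicates 1 and 2 and to 11583555 and 11650101 in gonidial replicates 1 and 2. The markers went with the labels: the somatic regulator regA had 486 and 786 counts in somatic cells and 1 and 0 in gonidia, and the 83 axoneme genes, which build the motile part of the flagellum, summed to 27766 and 31479 CPM in somatic cells and 1268 and 1204 CPM in gonidia. The 19 listed gonidial complementary DNA clones summed to 53851 and 43766 CPM in somatic cells and 87339 and 93034 CPM in gonidia. Of these clones 17 were lower in somatic cells and 2 higher, and of the axoneme genes 82 were higher and 1 lower. All genes that passed the filter on low counts had a median log2 ratio of -0.73, so that lower CPM in somatic cells was common. In bulk samples, fewer cells with a transcript and less of it per cell cannot be told apart.

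The 121 members held 5.36% and 4.97% of the counts of somatic replicates 1 and 2, and 5.06% and 5.08% of those of gonidial replicates 1 and 2. Their log2 ratios had a median of 0.02, with 65 above 0 and 56 below. Equal levels were not the most common state of well expressed genes. The 877 well expressed genes had a median log2 ratio of -0.39, with quartiles at -1.19 and 0.43, and 474 of them lay below the limits and 269 above. The window held 15.3% of the 877 genes, while 500 of them, or 57.0%, lay within 2-fold. In bins of 0.25 on the log2 scale, 62 genes lay just below 0 and 72 just above, and each bin between -1 and 0.75 held 62 to 74 genes, so that the limits cut a section from a broad plateau and not a separate peak.

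**Figure D1:**
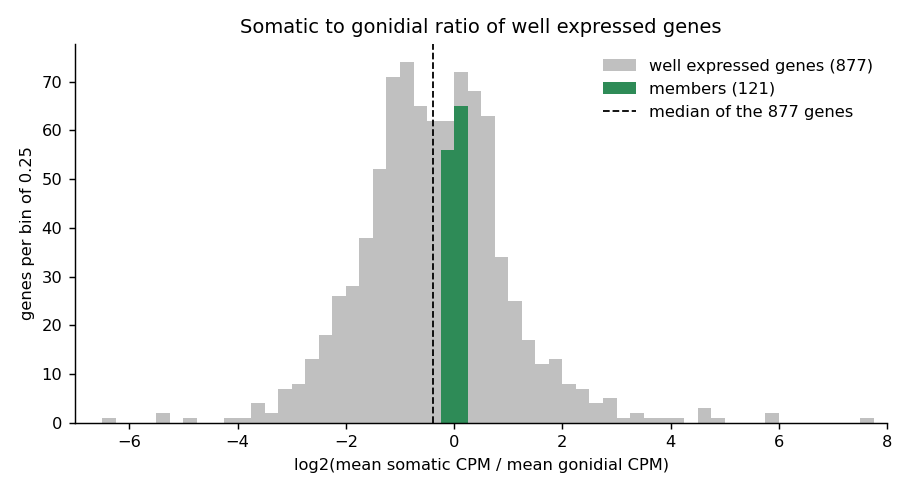
Histogram of the log2 ratio of mean somatic to mean gonidial CPM for the 877 well expressed genes (grey, genes per bin of 0.25), with the 121 members in green and the median of the 877 genes, -0.39, as a dashed line. The 2 bins around 0 hold 62 and 72 genes, at the height of the bins beside them, and the genes above the green bars in these bins are the listed loci that were left out.

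The limits were sharp where the genes were not. At the upper edge, Vocar.0018s0140 (log2 ratio 0.247) and Vocar.0005s0089 (0.245) were the last members, and Vocar.0019s0206 (0.252) and Vocar.0006s0331 (0.259) were the first genes outside. At the lower edge, Vocar.0004s0093 (-0.250) and Vocar.0020s0085 (-0.248) were inside, and Vocar.0029s0010 (-0.252) and Vocar.0012s0109 (-0.253) outside. At the floor, the lowest library of Vocar.0001s0318 stood at 50.04 CPM and that of Vocar.0008s0229 at 51.3 CPM, against 49.9 CPM in Vocar.0015s0137 and 49.4 CPM in Vocar.0011s0227, which were not members. Another 16 genes inside the ratio limits, listed or not, had a mean of at least 50 CPM and missed the floor in 1 library or more.

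Members ranged from 56.3 to 5677 CPM in their mean over the 4 libraries, with a median of 134 CPM. All stood in the upper part of the count table, between percentiles 87.4 and 99.9 of the gene models. The lowest count of any member in any library was 563, for which counting error alone is 4.21%, and the highest was 78556. Counting error covers neither the cultures nor the library preparation, and reads copied from 1 molecule by PCR count more than once.

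Vocar.0015s0272 was the most abundant member by reads. It had 5775 and 4631 CPM in somatic cells and 5559 and 6743 CPM in gonidia, means of 5203 ± 809 and 6151 ± 837 CPM (SD, n = 2 each), and a log2 ratio of -0.24. Its somatic replicate 1 lay within the gonidial range and its somatic replicate 2 below it. Neither the deposited table nor the lists pair this locus with a name.

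Vocar.0018s0140 was next, with 2970 and 2564 CPM in somatic cells and 2224 and 2440 CPM in gonidia. Vocar.0009s0214 had 2534 and 2364 CPM in somatic cells and 2168 and 1986 CPM in gonidia. Vocar.0001s0546 had 2342 and 2075 CPM in somatic cells and 2066 and 1963 CPM in gonidia. In these genes both somatic libraries stood above both gonidial ones, by a margin that for Vocar.0018s0140 and Vocar.0001s0546 was smaller than the gap between the somatic replicates of the gene. The libraries of the fifth and sixth members by reads overlapped. Vocar.0043s0070 had 2216 and 1887 CPM in somatic cells and 1931 and 2023 CPM in gonidia, and Vocar.0006s0140 had 1745 and 1563 CPM in somatic cells and 1984 and 1737 CPM in gonidia.

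A group of 20 members at 977 CPM and above was separated from the others by a gap of 1.59-fold in mean CPM, the next member having 615 CPM. The gap between the first and the second member was larger, at 2.23-fold. The listed locus GS2, left out by the rule but inside both limits, had a mean of 864 CPM. The 1.59-fold gap thus rests in part on leaving out listed loci, and the group is not a separate class. These 20 genes, a group defined after the values were seen, held 3.77% and 3.34% of the counts in somatic replicates 1 and 2 and 3.40% and 3.50% in gonidial replicates 1 and 2. They thus took most of the reads of the set. Their libraries were also the most alike, with a median range of 0.26 on the log2 scale over the 4 libraries, against 0.29 in the 23 members between 200 and 900 CPM, 0.30 in the 38 between 100 and 200 CPM and 0.39 in the 40 below 100 CPM.

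**Figure D2:**
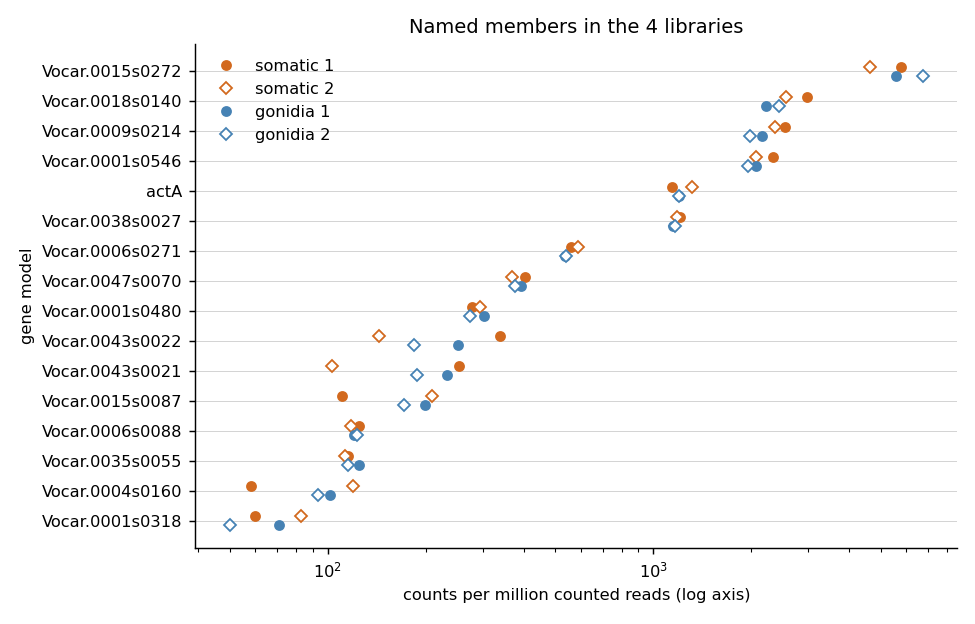
CPM of 16 named members in each library (log axis), with somatic replicates in orange and gonidial replicates in blue, filled circles for replicate 1 and open diamonds for replicate 2, ordered by mean CPM. The 4 symbols lie close together for actA and Vocar.0038s0027, while somatic replicate 2 stands far to the left for Vocar.0043s0021 (103 CPM) and Vocar.0043s0022 (143 CPM).

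actA (Vocar.0043s0003) encodes actin, a protein of the cytoskeleton, and was the only member that the sources used here pair with a name. It had 1146 and 1314 CPM in somatic cells (12419 and 17223 counts) and 1199.6 and 1199.4 CPM in gonidia (13896 and 13973 counts). The means were 1230 ± 119 CPM in somatic cells and 1200 ± 0.172 CPM in gonidia (SD, n = 2 each), a log2 ratio of 0.04. The gonidial values lay between the somatic ones, so that the difference between cell-types was smaller than that between the somatic replicates. By mean CPM actA was member number 16 of 121.

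For 1 gene, 2 libraries against 2 allow no two-sided p below 0.333 in an exact permutation test, and none was made. In edgeR's quasi-likelihood fit the log2 fold change of actA, somatic over gonidia, was -0.09 with a standard error of 0.19 and a 95% interval from -0.49 to 0.31. The fit scales each library to its total after removal of the most abundant genes, which places it lower than the ratio of mean CPM.

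The members whose profile over the 4 libraries was nearest to that of actA were Vocar.0005s0246 and Vocar.0062s0016. Nearness was the Euclidean distance of log2 CPM, each profile taken less its own mean, and came to 0.035 and 0.055 for these genes. Vocar.0005s0246 had 55.0 and 63.4 CPM in somatic cells and 59.1 and 57.3 CPM in gonidia. Vocar.0062s0016 had 167 and 194 CPM in somatic cells and 174 and 168 CPM in gonidia. Both were far below actA in CPM, and each was higher in somatic replicate 2 than in the other libraries, as actA was.

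The most even member was Vocar.0038s0027, with 1210 and 1181 CPM in somatic cells and 1151 and 1167 CPM in gonidia, a range of 0.07 on the log2 scale, or 1.05-fold between its highest and lowest library. Vocar.0006s0088 spanned 0.07 as well, with 124.7 and 118 CPM in somatic cells and 121 and 123 CPM in gonidia. Vocar.0006s0088 thus had far fewer reads than Vocar.0038s0027, although both were among the well expressed genes. The other genes complete the 6 with the smallest ranges. Vocar.0047s0070 had 403 and 368 CPM in somatic cells and 393 and 376 CPM in gonidia. Vocar.0006s0271 had 558 and 589 CPM in somatic cells and 537 and 540 CPM in gonidia. Vocar.0001s0480 (277 and 293 CPM in somatic cells, 303 and 274 CPM in gonidia) and Vocar.0035s0055 (115 and 113 CPM in somatic cells, 125.1 and 115 CPM in gonidia) spanned 0.15 each.

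Evenness of the means did not always mean evenness of the libraries. The range of log2 CPM over the 4 libraries had a median of 0.33 in the 121 members, was under 0.25 in 35 of them and under 0.5 in 103, and reached 1 or more in 3. In 40 members every single ratio of a somatic to a gonidial library lay within 0.25, and in 107 within 0.5.

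The members with the largest gap between somatic replicates were a pair of neighbours. Vocar.0043s0021 had 254 and 103 CPM in somatic cells and 233 and 188 CPM in gonidia. Vocar.0043s0022 had 338 and 143 CPM in somatic cells and 251 and 185 CPM in gonidia. Somatic replicate 1 was 2.46-fold above somatic replicate 2 in Vocar.0043s0021 and 2.36-fold above it in Vocar.0043s0022. In each gene somatic replicate 1 stood above both gonidial libraries and somatic replicate 2 below both, so that the log2 ratios of mean CPM, -0.24 and 0.14, describe neither somatic library. Whether reads could be exchanged between them, as between copies of a gene, was not tested.

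Vocar.0004s0160 and Vocar.0015s0087 went the other way. Vocar.0004s0160 had 57.9 and 119 CPM in somatic cells and 102 and 93.1 CPM in gonidia, and Vocar.0015s0087 had 111 and 209 CPM in somatic cells and 199 and 171 CPM in gonidia. Somatic replicate 1 was the low library in each. In gonidia the largest gaps were smaller, at 0.50 on the log2 scale in Vocar.0001s0318, with 59.8 and 82.9 CPM in somatic cells and 71.0 and 50.0 CPM in gonidia, and 0.49 in Vocar.0001s0124, with 96.3 and 108 CPM in somatic cells and 135 and 96.2 CPM in gonidia.

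Across the members, the absolute log2 ratio between replicates had a median of 0.19 in somatic cells and 0.15 in gonidia, and it was the larger in somatic cells for 73 of the 121 genes. It exceeded 2-fold in 3 members in somatic cells and in 0 in gonidia. For the 743 well expressed genes outside the ratio limits the medians were 0.24 in somatic cells and 0.14 in gonidia. Among those of them within 2-fold the medians were 0.20 and 0.13, close to the members, and in those 2-fold or more apart they were 0.30 and 0.14. Replicate differences of the members exceeded counting error in both cell-types. Their median squared difference was 22.9 times the counting variance in somatic cells and 11.2 times in gonidia. For the well expressed genes outside the ratio limits it was 42.7 and 16.7 times, and for those of them within 2-fold 28.4 and 11.8 times. These are descriptions across genes, which are not independent replicates.

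**Figure D3:**
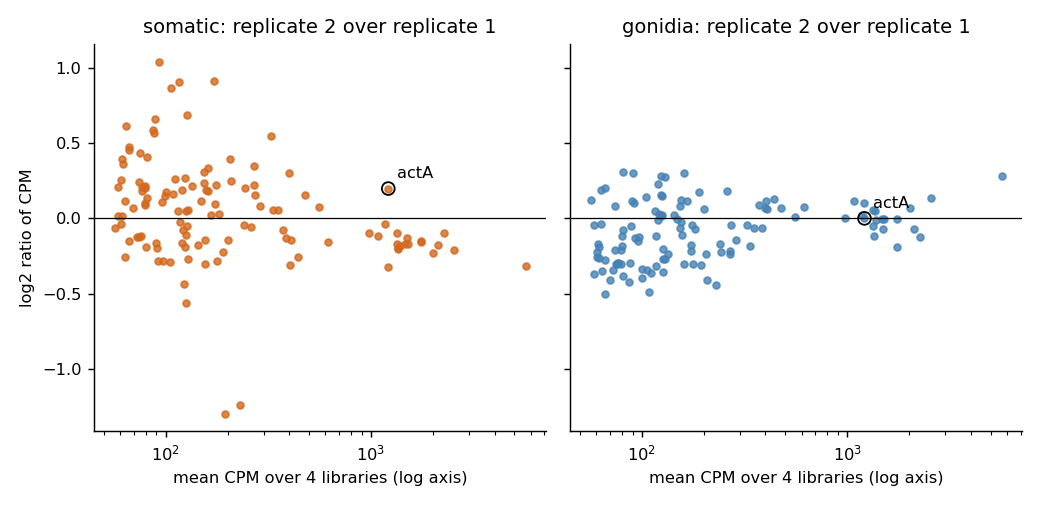
Log2 ratio of replicate 2 to replicate 1 for each of the 121 members against mean CPM over the 4 libraries (log axis), in somatic cells (left) and gonidia (right), with actA circled. The spread is wider on the left, where the lowest points are Vocar.0043s0021 and Vocar.0043s0022 at -1.30 and -1.24, and the abundant members other than actA lie below 0 there.

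The sign of the somatic replicate ratio went with abundance. Of the 20 members at 977 CPM and above, 19 were lower in somatic replicate 2 than in somatic replicate 1, with a median log2 ratio of -0.17, and actA was the exception. Of the 40 members below 100 CPM, 28 were higher in somatic replicate 2, with a median of 0.14, and in between 13 of 23 (median 0.06) and 22 of 38 (median 0.05) were. The gonidial replicates of the 20 abundant members had a median ratio of 0.00, and those of the 40 members below 100 CPM a median of -0.21, with 32 of 40 lower in gonidial replicate 2. Well expressed genes outside the ratio limits showed the same signs in somatic cells, with 120 of 161 genes above 900 CPM lower in somatic replicate 2 and 71 of 92 genes below 100 CPM higher in it. Across the 121 members, the somatic and gonidial replicate ratios had a Pearson correlation of -0.36, given as a description since all points share the same 4 libraries. It was -0.39 in well expressed genes but -0.09 over the 8826 tested genes with at least 10 counts in every library.

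With column totals, 17 of the 20 abundant members had a ratio of mean CPM above 0, with a median of 0.09, and in 11 of them both somatic libraries stood above both gonidial ones. This direction turned with the scaling, since in edgeR's fit with the study's library sizes 9 of the 20 had a log2 fold change above 0 and the median was -0.03, while with TMM all 20 were above 0. In the lower tiers with column totals, 12 of 23 members between 200 and 900 CPM had a ratio above 0 (median 0.01), 15 of 38 between 100 and 200 CPM (median -0.06) and 21 of 40 below 100 CPM (median 0.03), so that no steady trend with abundance was seen. The rule bounded all of these ratios by 0.25.

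In 82 members the CPM ranges of the cell-types overlapped. In the remaining 39, or 32.2%, they did not, with somatic cells above gonidia in 21 and below in 18. Over the 13350 tested genes the ranges did not overlap in 89.9%, with somatic cells above in 34.9% and below in 55.0%, and in 97.7% of the well expressed genes outside the ratio limits. The rule used the same values, and nothing is read from the smaller share in the members.

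All 121 members passed the filter on low counts. In edgeR's quasi-likelihood fit, 0 of 121 members were called higher in somatic cells and 0 lower at an adjusted p under 0.05, against 29.2% and 51.7% of the 13350 tested genes. None had an unadjusted p under 0.05, and the DESeq2 Wald test with the same library sizes called 0 members as well, also with 0 at an unadjusted p under 0.05. DESeq2 called 26.6% of the tested genes higher and 47.2% lower. The lowest adjusted p of a member was 0.0991 in edgeR and 0.153 in DESeq2. The rule had bounded the same contrast to within 0.25, so that 0 calls follow from the choice of the members and nothing is read from them. The 95% intervals had a median half-width of 0.45 on the log2 scale, and centred on values so bounded, all 121 held 0 and lay within 2-fold. These counts describe the choice and do not show equal expression. Standard errors of the members had a median of 0.21, as in well expressed genes outside the ratio limits, and ranged from 0.19 to 0.30.

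The rule bounded the ratio of means over both libraries of a cell-type, and this bound does not hold when a library is left out. Without somatic replicate 1, the log2 ratios of the members ranged from -1.03 to 0.46, and without somatic replicate 2 from -0.75 to 0.63. Without gonidial replicate 1 they ranged from -0.37 to 0.51, and without gonidial replicate 2 from -0.40 to 0.32. The fitted median log2 fold change was -0.13 without somatic replicate 1 and -0.12 without somatic replicate 2. In these fits the single somatic library is assumed to vary as the gonidial ones do.

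Which genes are equal depends on how the libraries are scaled. With plain column totals the members' fitted log2 fold changes had a median of 0.03 and ranged from -0.25 to 0.25, and 0 members were called, against 29.8% of tested genes higher and 48.8% lower. With totals that leave out the most abundant 0.3% of genes in each library, as the study's methods do, they were lower by 0.12, with a median of -0.10 and a range from -0.37 to 0.13, and 28 members were above 0 and 93 below. With TMM, which assumes that most genes do not change, the median was 0.50 and all 121 members were above 0, from 0.22 to 0.73. DESeq2's size factors gave a median of 0.61, from 0.34 to 0.84. A scaling changes each library by its own factor, so that genes with unequal replicates moved by somewhat different amounts. From column totals to TMM, Vocar.0043s0022 went from 0.14 to 0.68 and Vocar.0004s0160 from -0.14 to 0.31. Under each scaling 60.9% of tested genes lay below the median of the members, and this nearly fixed place is no result.

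Under TMM, 63 members (52.1%) were called higher in somatic cells and 0 lower, against 37.0% and 42.8% of tested genes. Under DESeq2's size factors 89 (73.6%) were called higher and 0 lower, against 38.3% and 40.9%. The intervals of 78 members lay within 2-fold and those of 49 held 0 under TMM, against 50 and 25 under DESeq2's size factors. The fold change of actA was 0.51 under TMM and 0.62 under DESeq2's size factors. The counts alone do not say which scaling holds for RNA per cell.

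**Figure D4:**
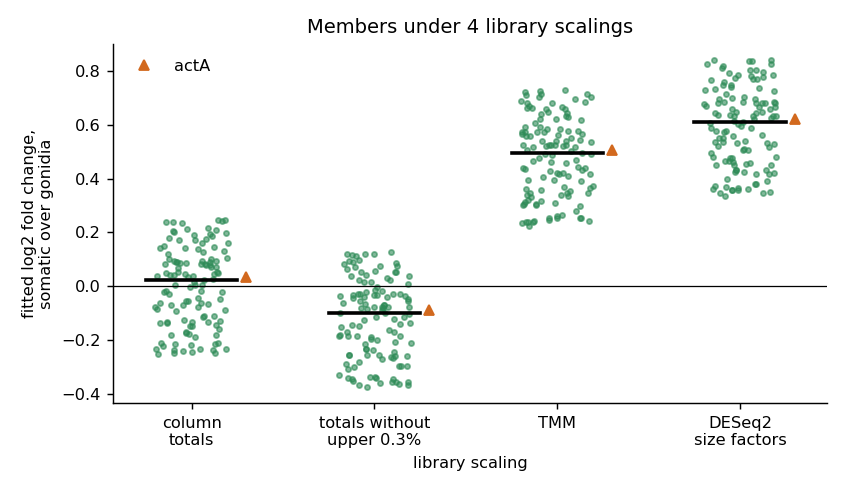
Fitted log2 fold change, somatic over gonidia, of the 121 members (green points, spread sideways for legibility) under 4 library scalings, with the median as a black bar and actA as a triangle. The cloud nearly keeps its shape and moves from a median of 0.03 with column totals and -0.10 with the upper 0.3% removed to 0.50 with TMM and 0.61 with DESeq2's size factors.

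When the rule itself was applied under these scalings, it found similar numbers of genes, and how many of them were members differed between scalings. With totals that leave out the most abundant 0.3%, 122 genes met it, of which 89 were members (73.6% of the members and 73.0% of the 122). With TMM, 121 genes met it, of which 8 were members (6.61% of each list). With DESeq2's size factors 126 genes met it and 0 were members. With the libraries scaled to actA, a choice made after the data were seen, 117 genes met the rule and 107 of them were members (88.4% of the members and 91.5% of the 117).

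Listed loci were inside the ratio limits in 14 of 174 well expressed cases, or 8.05%, against 120 of 703 well expressed loci on no list, or 17.1%. Apart from actA, 13 such loci were left out, and they held between 3.29% and 4.14% of the counts of a library. The lists were chosen by the study and are not a sample of the genome. Among the photosynthesis genes, 61 of 64 well expressed loci lay below the ratio limits and 3 inside, and among the carbon metabolism genes 48 of 59 lay below, 6 above and 5 inside. Other lists leaned the other way: of the flagella, basal body and transition zone genes 9 of 15 lay above the limits, 4 below and 2 inside, and of the nucleotide sugar genes 7 of 12 lay above, 3 below and 2 inside.

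The most abundant of the loci left out carried more reads than any member. GAP3 (Vocar.0013s0021), a glyceraldehyde 3-phosphate dehydrogenase, had 19460 and 15550.4 CPM in somatic cells and 15129 and 15424 CPM in gonidia. FBA3 (Vocar.0008s0418), a fructose bisphosphate aldolase, had 18390.1 and 15582 CPM in somatic cells and 14285 and 15031 CPM in gonidia. Enzymes of both kinds act in glycolysis and the Calvin cycle. For both genes the gap between somatic replicates was larger than the distance of somatic replicate 2 from either gonidial library.

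A gene of the major light-harvesting complex of photosystem II, clade 4 (Vocar.0007s0215), had 1479 and 915 CPM in somatic cells and 1152 and 1451 CPM in gonidia. Since only uniquely mapped reads were counted, its values are uncertain where it resembles other genes of the family. The study did not assign levels to single genes of clade 4, because their sequences are so alike. It remapped the reads and measured the clade as a whole, so that the CPM given here are not the study's measure. GS2 (Vocar.0028s0089), a glutamine synthetase of nitrogen assimilation, had 808 and 831 CPM in somatic cells and 914 and 901 CPM in gonidia. UGE1 (Vocar.0025s0149), a UDP-glucose 4-epimerase, had 237 and 243 CPM in somatic cells and 289 and 282 CPM in gonidia.

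GAP1 (Vocar.0031s0009), another glyceraldehyde 3-phosphate dehydrogenase on the carbon metabolism list, had 244 and 197 CPM in somatic cells and 267 and 256 CPM in gonidia. The list of genes from earlier cell-type studies names the same locus upf6, a protein of unknown function. The flagella lists contributed POC21 (Vocar.0028s0169), a protein listed with the flagellar and basal body genes, with 225 and 193 CPM in somatic cells and 198 and 211 CPM in gonidia. From the same list, BUG7 (Vocar.0004s0214) had 197 and 204 CPM in somatic cells and 195 and 162 CPM in gonidia. Unlike the axoneme genes summed above, these had nearly the same share of reads in both cell-types.

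The members were spread over 42 scaffold numbers, as the locus identifiers give them. Scaffold 1 held the most, with 21 members among its 129 well expressed genes (16.3%, against 13.8% of all well expressed genes). By version of the gene model, 120 members were version 2.1 predictions and 1 was a version 2.0 prediction. Version 2.0 predictions made up 11.0% of all gene models and 0.684% of well expressed ones. Members were next to each other by serial number in 3 of the 77 pairs of neighbouring well expressed genes.

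Besides the pair already described, these were Vocar.0033s0044 and Vocar.0033s0045, and Vocar.0047s0070 and Vocar.0047s0071. Vocar.0033s0044 had 78.8 and 147 CPM in somatic cells and 133 and 107 CPM in gonidia, and Vocar.0033s0045 had 146 and 99.2 CPM in somatic cells and 128 and 129 CPM in gonidia. Here the somatic replicates went in opposite directions in the neighbours, with log2 ratios of replicate 2 to replicate 1 of 0.90 and -0.56. Vocar.0047s0071 had 75.9 and 88.1 CPM in somatic cells and 80.4 and 74.2 CPM in gonidia, well below its neighbour Vocar.0047s0070 in reads.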

How the data were processed

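Per the study's methods, the authors trimmed the reads (Trimmomatic), mapped them to the version 2 genome (STAR) and deposited, for each gene model, the count of reads that HTSeq placed there from unique alignments. They are whole numbers without normalization, and replicates were not pooled. Versions of these tools and the use of strand are not given in the sources used here, so that counts are less certain where genes on opposite strands overlap.

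CPM and the ratios were computed from these counts by the rule given above. Tests were made over all 13350 genes left after removal of genes without counts and the bottom 10% of mean normalized count, with edgeR 4.0.16 (R 4.3.3) and its quasi-likelihood test, Benjamini-Hochberg adjustment and cell-type as the only term. Each library's size was its total without the most abundant 0.3% of its genes, as in the study. Residual degrees of freedom numbered 2, prior degrees of freedom 17.1, and the common dispersion was 0.0316. Intervals (95%) come from the fitted standard errors.

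The genes named are actA, the 6 members of largest mean CPM, the 6 of smallest range, the 4 with the largest somatic and 2 with the largest gonidial replicate ratio, 2 genes on each side of each limit, the 2 members nearest to actA and the 8 most abundant listed loci left out. The neighbouring pairs and Vocar.0047s0071 were added after their values were seen. The members and lists were chosen with earlier results of these data known.

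Alternatives were plain totals, TMM and DESeq2's size factors (both computed over the tested genes), the DESeq2 1.42.0 Wald test, other filters, floors and windows, the replicate number as a term, and each library left out in turn. TMM and size factors over all gene models, crossed pairing and scaling to actA were added after seeing the data.

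On simulated counts for 13350 genes with 200 changed, the edgeR steps called 107 of 107 genes changed 4-fold and 55 of 93 changed 2-fold, with 1 false call, and 95.6% of the 95% intervals held the true value. Smaller changes were not simulated. The simulation gave all genes a single dispersion and used plain column totals as library sizes. In the data 29.2% of tested genes were called higher and 51.7% lower, far more than were changed in the simulation, and calls moved with the scaling. The simulated rates therefore check the steps and do not carry over to the data. Figures and tables used Python 3.11.15, numpy 2.4.6, pandas 2.3.3 and matplotlib 3.10.9.

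The RefSeq gene table at hand (14334 genes of an earlier assembly) held the identifiers of 0 members, so that no names, sequences or genome coordinates are given for them.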

Additional observations from a re-analysis of the deposited data

How the results depend on the processing

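The number of genes meeting the rule was 201 at a floor of 25 CPM, 74 at 100 CPM, 236 with a window of 0.5, 60 when the window was narrowed by a factor of 2, and 40 when every library ratio had to lie within 0.25, against 121. Well expressed genes within 2-fold numbered 809 and 317 at floors of 25 and 100 CPM, against 500. Members called higher in somatic cells numbered 63 with TMM and 89 with DESeq2's size factors, with median log2 fold changes of 0.50 and 0.61, against 0 and -0.10. With the factors computed over all gene models, an alternative chosen after seeing the data, 74 and 89 were called. The medians were 0.54 and 0.60. The share of all tested genes called with these factors is not given here, so that nothing is read from the 74 and 89 calls. By construction these scalings change each library by its own factor. Relative to plain totals, the mean log2 shift of the somatic over the gonidial libraries was 0.48 for TMM and 0.59 for DESeq2's size factors over the tested genes.

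Leaving out each library in turn, the rule found 114 to 131 genes, and 494 to 562 well expressed genes lay within 2-fold. Each fit with a library left out keeps only a single library of that cell-type. The share of all tested genes called in these fits is not given here, so that nothing is read from the calls that follow. Members called higher numbered 0 to 1, members called lower 0 to 13, and the median log2 fold change was -0.13 to -0.11.

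The replicate numbers do not pair the samples, since each preparation came from its own culture. With the replicate block 0 members were called in either direction, and the median log2 fold change was -0.10. With the numbers crossed between cell-types, tried because the replicate ratios of well expressed genes had a correlation of -0.39, 6 members were called lower and 0 higher. The median log2 fold change was again -0.10. The share of all tested genes called in this fit is not given here, so that nothing is read from the 6 calls. The DESeq2 Wald test, plain totals and both other filters on low counts called 0 members.

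For the 39 named genes, moves of the log2 fold change by more than the spread of the library ratios were counted. There were 15 with plain totals, 36 with TMM and 37 with DESeq2's size factors, each time toward somatic cells. There were 13 without somatic replicate 1, 8 without somatic replicate 2, 4 without gonidial replicate 1 and 4 without gonidial replicate 2. Groups of 2 libraries are too small to test single libraries as outliers. Counting error at the lowest count of 563 was 4.21%, and the sources of the larger spread between replicates were not told apart.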
